A study of Mus musculus with 6 samples.

Results

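The genes described here encode actin-like and perinuclear theca proteins of the spermatid. They are 9 genes named by symbol, Actl7a, Actl7b, Actl9, Actrt2, Actrt3, Capza3, Cylc2, Ccin and Dpy19l2, and a member was measured where the RefSeq accession of an mRNA probe maps to its gene. By this rule 7 of the 9 genes had an mRNA probe, 1 each, out of 19053 genes with a named mRNA probe on the array. Cylc2 and Dpy19l2 had none under the rule and are named only. RNA of whole testis from male C57/BL6 mice was read in 1 colour at 6 days (neonatal) and at 8 weeks (adult), on 3 arrays per age. No treatment or altered gene is given in the labels at either age. The methods list more mice than arrays and divide the mice of each age into 3 groups, so an array stands for a group of animals and not for 1 mouse. Per the file headers, replicates 1 and 2 of both ages shared a scan and replicate 3 of both ages came from another. The study asked which transcripts differ between the neonatal and the adult testis.

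The perinuclear theca is a rigid cytoskeletal shell between the nucleus and the membranes of the sperm head, and its front part holds the acrosome to the nuclear envelope. Spermatids build it from proteins that other cells do not make in quantity, among them actin-like proteins, a testis form of the actin capping subunit, the basic proteins called cylicins, and calicin. A neonatal mouse testis holds spermatogonia and somatic cells, and spermatids appear only weeks later.

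Signals are given as normalized log2 signal, the log2 of the background-subtracted intensity relative to the array's own 75th percentile, with a common floor at -7.22. A gene was called, and is said to have risen or fallen, where adult and neonatal testis differed by 5-fold or more with a limma p of at most 0.05 after Benjamini-Hochberg adjustment. Spots that the scanner software marked as outliers were left out of the fit, and only probes with 2 complete adult and neonatal pairs left were tested. Where no neonatal spot of a probe was well above background, the change is given as a lower bound. For the bound, a neonatal value below the dimmest well-above-background spot of its array was raised to that spot. An adjusted p printed beside a bound is that of the fit on the floored values and not of the bound. Neonatal values that all lay at the floor had no spread in that fit. The bounds hold only for the background subtraction used here. Normexp, another background correction, run with an offset of 50 added to every intensity, gave smaller changes, which are printed beside the bounds of tested genes.

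Of the 7 members with a probe, 6 were well above background on all 3 adult arrays and 5 could be tested. All 5 tested members, Actl7a, Actl7b, Actrt2, Capza3 and Ccin, rose in the adult testis, against 12.6% of the 15121 tested mRNA probes called in that direction. Actl9 was not tested in this fit, because it had too few unmarked spots. With the outlier-marked spots kept, 6 of 6 members rose, against 12.8% of 19310 probes. Each of the 6 had all of its adult values above all of its neonatal values. This held for 26.9% of the 19310 mRNA probes well above background on 1 array or more. A member that was dim in the neonatal testis passed the filter through its adult signal, so these counts describe the members and do not weigh them against other genes. Actrt3 stayed at background on all arrays. In bulk tissue, a lower number of the cells that make a transcript and less of it per cell cannot be told apart.

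Actl7a encodes an actin-like protein of the subacrosomal layer that is needed to hold the acrosome in place. Its normalized log2 signal was -6.09, -5.997 and -4.83 on neonatal arrays 1 to 3 and 5.98, 6.06 and 6.67 on adult arrays 1 to 3. All 6 spots were well above background and none was marked as an outlier. The ages were far apart, and replicate 3, from the other scan, gave the highest value at each age. The log2 fold change, adult over neonatal, was 11.88 (adjusted p = 7.62e-05, SE 0.16), or 3758-fold, and 10.73 after the normexp background correction. The adult minus neonatal difference was 12.07, 12.06 and 11.50 in the 3 pairs.

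Actl7b, the neighbour of Actl7a on chromosome 4, encodes another actin-like protein of spermatids. Its signal was -6.53, -6.44 and -6.43 on the neonatal arrays, of which the first was not well above background. On the adult arrays it was 5.94, 5.92 and 6.14, with the last marked as an outlier and left out of the fit. The values within an age lay close together and the ages did not overlap. The log2 fold change was 12.41 (adjusted p = 0.000126, SE 0.14), or 5456-fold, and 10.64 after the normexp background correction.

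Actrt2, which encodes an actin-related protein of the theca, was well above background on all 3 neonatal arrays, at -4.03, -4.19 and -3.60. The adult values were 5.39, 5.53 and 5.65, the last marked as an outlier. The log2 fold change was 9.57 (adjusted p = 0.000165, SE 0.16), or 761-fold. Among the 12761 tested mRNA probes measured above background at both ages, the rise of Actl7b was in place 27, that of Actl7a in place 36 and that of Actrt2 in place 127, counted from the largest.

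Actl9 encodes an actin-like protein that lies with Actl7a in the subacrosomal layer. None of its 3 neonatal spots was well above background, and all were at the floor. The adult values were 2.15, 2.35 and 2.32, of which the first and the last were marked as outliers. That left 1 complete pair, so Actl9 was not tested in the paired fit with those spots removed. On the adult array that remained, Actl9 was at least 715-fold higher than in the neonatal testis. With the spots kept it was at least 677-fold higher (adjusted p = 1.1e-05 in that fit).

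Actrt3 is the member whose signal stayed at the floor on all 6 arrays. Its background-subtracted intensity was 5.68, 3.27 and 6.11 on the neonatal arrays and 3.45, 3.41 and 1.51 on the adult arrays. The lowest intensity of any spot well above background lay between 6.09 and 24.0 over the arrays. No fold change is given, because both ages were below what the array measures with this probe.

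Capza3 encodes the alpha subunit of the capping protein that spermatids use in place of the widely expressed forms. All 3 neonatal spots were at the floor and not well above background. The adult values were 3.47, 3.44 and 2.88, the last marked as an outlier and the lowest of the 3. Capza3 was at least 1539-fold higher in the adult testis (adjusted p = 0.000133, 2 adult arrays), and at least 1347-fold higher with the outlier-marked spot kept. With normexp the log2 fold change was 9.26, below the bound of 10.59 on that scale.

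Ccin encodes calicin, a structural protein of the theca behind the acrosome. It too was at the floor in the neonatal testis. On the adult arrays its signal was 0.03, 0.31 and 0.10, the last marked as an outlier, so the adult values differed by less than 1 on the log2 scale. Ccin was at least 157-fold higher in the adult testis (adjusted p = 0.000218, 2 adult arrays). With normexp its log2 fold change was 5.53, below the bound of 7.30. Its partner in the theca, Cylc2, and the acrosome anchor of the inner nuclear membrane, Dpy19l2, were not measured by these probes.

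**Figure D1:**
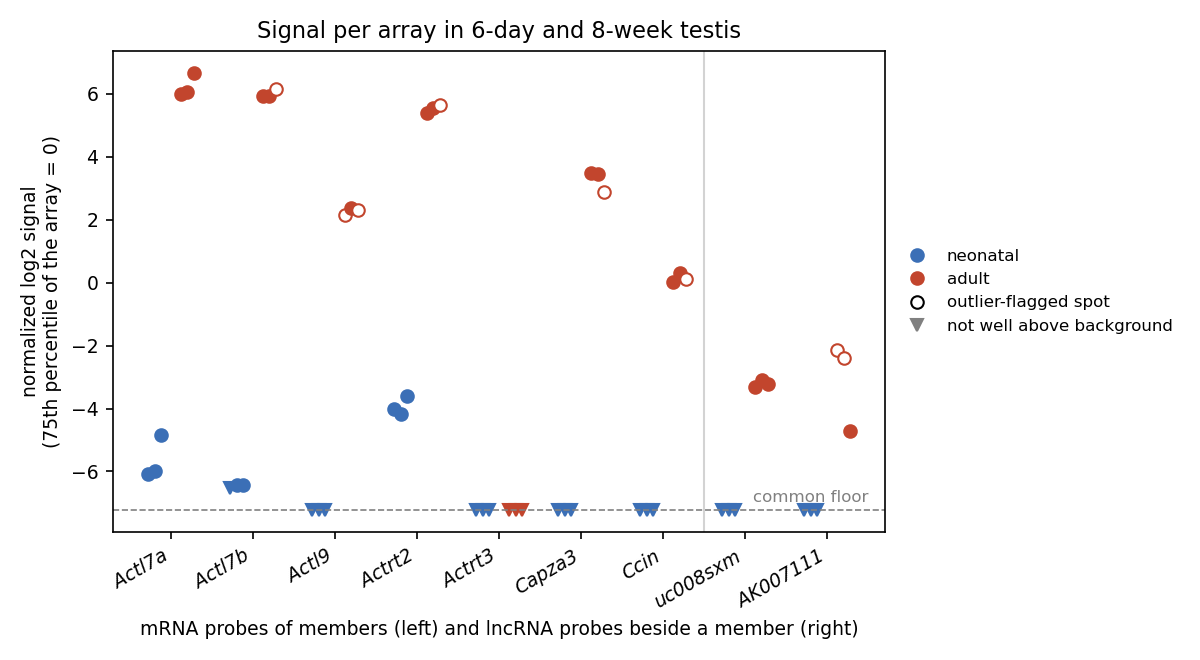
Normalized log2 signal of each member's mRNA probe and of the lncRNA probes beside a member (x axis), 1 symbol per array, with neonatal arrays in blue and adult arrays in red (y axis, log2 with the array's 75th percentile at 0). Open symbols mark outlier-flagged spots and triangles mark spots not well above background, and the dashed line is the common floor at -7.22. For 6 of the 7 members all adult values lie above all neonatal values, and Actrt3 is at the floor at both ages.

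The median log2 fold change of the 5 tested members was 10.68, or 10.59 with Capza3 and Ccin at their bounds, beside -0.40 over all 15121 tested mRNA probes. The log2 fold changes ran from at least 7.30 for Ccin to 12.41 for Actl7b. Outlier marks fell on the adult replicate 3 spot of 5 of the 6 members above background. The share was 37.1% among the 19310 mRNA probes well above background on 1 array or more. With these spots kept, the changes of the 6 members ran from at least 7.28 to 12.47. Within the scan that held replicates 1 and 2, all 5 were called, and in the scan that held replicate 3 the single pair differed by 11.50 for Actl7a, 12.58 for Actl7b and 9.25 for Actrt2, with outlier-marked spots kept. The neonatal spots of Actl9, Capza3 and Ccin in that scan were at the floor. That scan holds 1 array per age and gives no test.

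Of the other testis actin-related and profilin genes, 4 of 4 tested were called higher in the adult testis, against 12.6% of the 15121 tested mRNA probes. Their median log2 fold change was 5.97, or 5.88 with 3 of them at their bounds. As for the members, a gene dim in the neonatal testis passed the filter through its adult signal. The counts of this and the following lists thus describe the genes and do not weigh them against others. Profilins bind actin monomers, and Pfn3 and Pfn4 are the forms of the testis. Pfn3 was at the floor on the neonatal arrays and at 3.29, 3.32 and 3.51 on the adult arrays, the last marked as an outlier, and it was at least 1383-fold higher (adjusted p = 0.000135, 2 adult arrays). Pfn4 was measured at both ages, at -6.01, -5.70 and -6.13 against -2.19, -2.73 and -2.85, a log2 fold change of 3.36 (adjusted p = 0.000415, SE 0.20). After the normexp background correction it was 2.29, just under 5-fold. Actrt1, a further actin-related gene of the theca, was higher by at least 5.29 on the log2 scale (adjusted p = 0.000279, 2 adult arrays), and Actl11 at least 88.6-fold higher (adjusted p = 8.8e-05, 3 adult arrays). The normexp log2 fold changes of Pfn3, Actrt1 and Actl11 were 8.66, 3.66 and 4.399, all below their bounds and all called. Actl10 had no probe under the rule.

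The list of other theca, acroplaxome and acrosome-anchoring genes held 21 genes, all with a probe. Of the 13 that could be tested, 8 rose, none fell and 5 were not called, with a median log2 fold change of 5.11. Over all tested mRNA probes 12.6% rose, and 12.8% with the outlier-marked spots kept. With the outlier-marked spots kept, 14 of 21 rose and none fell. Spata16, a Golgi protein of the forming acrosome, was at -7.22, -7.22 and -6.69 on the neonatal arrays, the first not well above background, and at 5.19, 5.25 and 5.92 on the adult arrays. Its log2 fold change was 12.50 (adjusted p = 7.62e-05, SE 0.11), with neonatal values at or close to the floor. Over the alternatives to floor, scaling and background correction, its lowest value was 10.46. Sun3, a nuclear envelope protein of spermatids, rose by a log2 fold change of 8.95 (adjusted p = 0.000154, SE 0.14), and Zpbp2, a zona pellucida binding protein of the acrosome, by 7.88 (adjusted p = 0.000169, SE 0.14). Sun5, which joins the sperm head to the tail, was at least 66.5-fold higher (adjusted p = 0.000182, 3 adult arrays), and by a log2 fold change of 3.81 with normexp.

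Cylc1, the X-linked cylicin and the paralog of Cylc2, was measured above background on every array. Signals were -4.58, -6.25 and -4.96 in the neonatal testis and -0.82, -1.03 and -1.21 in the adult testis, the last marked as an outlier. The neonatal replicates spread more widely than the adult ones, but the ages did not overlap. The log2 fold change was 4.49 (adjusted p = 0.00376, SE 0.44). Cylc1 was not called without the filter on dim probes (adjusted p = 0.0789). It was also not called by the methods' t-test, either as it stands or after Benjamini-Hochberg adjustment (adjusted p = 0.144). Its size was the same in these fits.

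Spaca1, Fam209, Plcz1 and Spata46 were not tested in the paired fit, since 2 or 3 of their adult spots were marked as outliers, and are given with these spots kept. Spaca1, an acrosomal membrane protein, was at -2.09, -1.80 and -1.86 against 4.92, 4.87 and 4.86, a log2 fold change of 6.80 (adjusted p = 1.53e-05, SE 0.13). Fam209, which encodes a partner of Dpy19l2 in the nuclear membrane, was at -4.97, -4.91 and -5.66 against 3.81, 3.58 and 2.08, a log2 fold change of 8.33 (adjusted p = 3.91e-05, SE 0.24). Plcz1, the sperm phospholipase that activates the egg, was at the neonatal floor and at least 3962-fold higher in the adult testis (adjusted p = 1.1e-05). Spata46, a protein of the subacrosomal region, was at least 6720-fold higher (adjusted p = 1.1e-05). The other genes of this list left untested for outlier marks were Zpbp, Agfg1, Gopc and Gba2. With the spots kept their log2 fold changes were 4.01, 2.42, 0.76 and -0.53, and Gopc and Gba2 were not called. Gsto2, a glutathione transferase held in the theca, was tested with all spots in place and rose by a log2 fold change of 5.11 (adjusted p = 9.28e-05, SE 0.10). The 5 tested genes without a call were Pick1, Spem1, Csnk2a2, Smap2 and Vps54, and the log2 fold changes of Pick1, Spem1, Smap2 and Vps54 were 1.31, 1.87, 0.28 and -0.89. Csnk2a2 was at background on the adult arrays. Most of these are also made outside the testis, which was not measured here, and why they were not called was not tested.

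The widely expressed actin, actin-related and capping genes did not show the members' change. Of 24 genes with a probe, 12 could be tested, and 1 rose, 3 fell and 8 were not called. Their median log2 fold change was -0.48. With the outlier-marked spots kept, all 24 were tested, 1 rose and 4 fell, and the median was -1.46, beside -0.50 over all mRNA probes tested in that way. Calls in the falling direction covered 13.7% of the tested mRNA probes. Actb, cytoplasmic beta-actin, was at 3.63, 3.78 and 4.74 in the neonatal testis and 1.57, 1.08 and 2.32 in the adult testis, a log2 fold change of -2.37 (adjusted p = 0.00368, SE 0.23). It was not called by the methods' t-test, either as it stands or after Benjamini-Hochberg adjustment (adjusted p = 0.125). With dim probes left in, Actb was not called either (adjusted p = 0.0644). Actr3b, a subunit of the Arp2/3 complex, had a log2 fold change of -2.97 (adjusted p = 0.00154, SE 0.19). Capg, a capping protein of the gelsolin family, had one of -2.37 (adjusted p = 0.00144, SE 0.15) with the replicate block and of -2.05 without it, which is under 5-fold, as was the -2.25 after the normexp correction. Dstn, an actin depolymerizing factor, was not tested in the paired fit and with the spots kept had a log2 fold change of -3.77 (adjusted p = 6.88e-05, SE 0.14).

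The capping subunits gave different values within this list. Capza1, a widely expressed paralog of Capza3, rose from -4.36, -4.38 and -4.003 to -1.89, -1.37 and -1.39, a log2 fold change of 2.70 (adjusted p = 0.000362, SE 0.15), and of 2.13, under 5-fold, after the normexp background correction. Capza2 was at 3.63, 3.60 and 4.10 against 2.82, 2.86 and 2.39, a log2 fold change of -1.09 with the spots kept (adjusted p = 0.0134, SE 0.24), which is under 5-fold. Capzb, the beta subunit, had a log2 fold change of -2.03 in that fit (adjusted p = 0.000453, SE 0.16), also under 5-fold. The difference between Capza3 and its paralogs was not tested.

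None of the 4 muscle actins was called. Their median log2 fold change was -0.81, with Acta2 at -1.91 (adjusted p = 0.00193, SE 0.14) and Actg2 at 1.77 (adjusted p = 0.0567, SE 0.53). Of the other Dpy19 family genes, 3 were tested and 1 fell. Dpy19l3 was at -0.63, -0.38 and -0.09 against -3.20, -3.07 and -2.83, a log2 fold change of -2.63 (adjusted p = 0.00108, SE 0.14), and of -2.26 after the normexp correction. Dpy19l1 had a log2 fold change of 0.98 (adjusted p = 0.00965, SE 0.14), under 5-fold. These genes encode mannosyltransferases or proteins like them, and their values say nothing on Dpy19l2. Of the 5 tested widely expressed nuclear envelope genes, 1 fell and none rose. That gene was Lmnb1, a lamin, at -1.52, -1.48 and -0.78 against -5.37, -5.66 and -4.80, a log2 fold change of -4.02 (adjusted p = 0.000133, SE 0.12). The median of these 5 was -0.98, and over all 8 with the spots kept it was -0.89. These counts take the brightest probe of a gene, and another probe of Lmna and another of Syne1 were called lower.

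**Figure D2:**
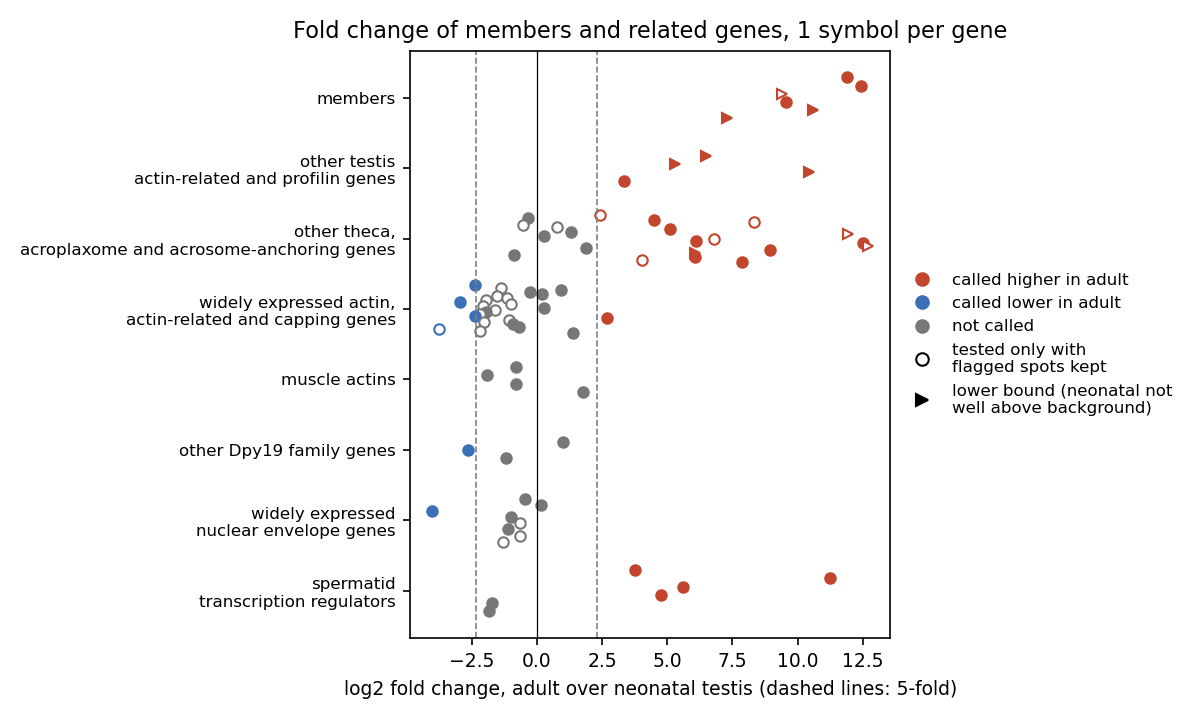
Log2 fold change of adult over neonatal testis (x axis) for the genes of each list (y axis), 1 symbol per gene. Red and blue mark genes called higher or lower in the adult testis, open symbols mark genes not tested in the paired fit and given with outlier-flagged spots kept, triangles mark lower bounds, and dashed lines mark 5-fold. The members lie between 7.30 (the bound of Ccin) and 12.41, and 3 of the 12 tested widely expressed actin, actin-related and capping genes lie below the lower line.

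Regulators of transcription in spermatids were followed beside the members. Of 6 tested genes, 4 rose and none fell, with a median log2 fold change of 4.25, beside 12.6% of all tested mRNA probes called higher. Fhl5, known as ACT, the coactivator of CREM in the testis, was at -5.60, -5.93 and -4.87 in the neonatal testis and 5.54, 5.59 and 6.21 in the adult testis, a log2 fold change of 11.25 (adjusted p = 7.62e-05, SE 0.14). Crem, the cAMP-responsive factor of spermatids, had 11 probes, of which 10 could be tested and 8 were called higher. Its brightest probe rose from -0.88, -0.85 and 0.34 to 2.71, 3.05 and 3.57, a log2 fold change of 3.75 (adjusted p = 0.00072, SE 0.16). Rfx2 had a log2 fold change of 5.59 (adjusted p = 0.000273, SE 0.14) and Sox30 one of 4.75 (adjusted p = 0.000341, SE 0.14). Tbpl1 at -1.83 (adjusted p = 0.0279, SE 0.49) and Taf7l at -1.73 (adjusted p = 0.00336, SE 0.16) stayed under 5-fold.

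The promoters of the members were searched for the letters of cAMP response elements and of other known elements. The RefSeq promoter table (GRCm38.p6) held 7 of the 9 members, all but Capza3 and Cylc2. These 7 include Actrt3, which stayed at background, and Dpy19l2, which had no probe, so the counts are not counts of genes that rose. The 250 bases before each start were searched on both strands for TGACGTCA, the cAMP response element (CRE), for TGACG, its core, which lies within the CRE, for TATAAA, the TATA box, for GTTGCC, a part of the X-box that RFX factors bind, and for ACAAT, the core of SOX elements. TGATGTCA, a variant of the CRE by 1 base, was added after the sequences had been seen. A match is a description of the letters and not a bound site.

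Ccin was the only 1 of the 7 promoters with TGACGTCA, which 1.55% of all 32851 promoters of the table held. The variant TGATGTCA was in Actl7a, Actl7b and Actl9, 3 of 7, and in 2.93% of all promoters. Since it was chosen from these sequences, these shares are not a comparison. TGACG was in Actrt3 and Ccin (2 of 7, against 17.8%), TATAAA in Actl9 (1 of 7, against 12.4%), GTTGCC in Actl7b and Actrt2 (2 of 7, against 10.4%), and ACAAT in Actl7a, Actl9, Actrt2, Actrt3 and Dpy19l2 (5 of 7, against 27.7%). The CRE letters in Ccin began at base -50 from the start, and the variant began at base -40 in Actl7a, at -36 in Actl7b and at -60 in Actl9. In Actl7b it was read on the opposite strand, as TGACATCA. Actl7a and Actl7b are transcribed away from each other, and their starts lie 1997 bases apart. The last 120 bases before the start are printed for these 4 genes, 5′ to 3′ on the strand of the gene, with the CRE or its variant in capitals. Actl7a is at chr4:56743302-56743421 on the plus strand, Actl7b at chr4:56741426-56741545 on the minus strand, Actl9 at chr17:33432779-33432898 on the plus strand and Ccin at chr4:43983384-43983503 on the plus strand, all in GRCm38.p6.
Actl7a: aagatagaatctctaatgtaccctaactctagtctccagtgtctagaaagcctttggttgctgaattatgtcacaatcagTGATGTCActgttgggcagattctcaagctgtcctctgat
Actl7b: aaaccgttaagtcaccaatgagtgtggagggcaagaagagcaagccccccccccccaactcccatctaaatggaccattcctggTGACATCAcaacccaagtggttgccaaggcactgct
Actl9: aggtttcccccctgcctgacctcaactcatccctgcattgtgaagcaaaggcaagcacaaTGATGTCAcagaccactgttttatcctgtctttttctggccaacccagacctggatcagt
Ccin: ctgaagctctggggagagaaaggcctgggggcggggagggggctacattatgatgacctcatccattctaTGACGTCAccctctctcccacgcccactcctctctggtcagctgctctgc

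**Figure D3:**
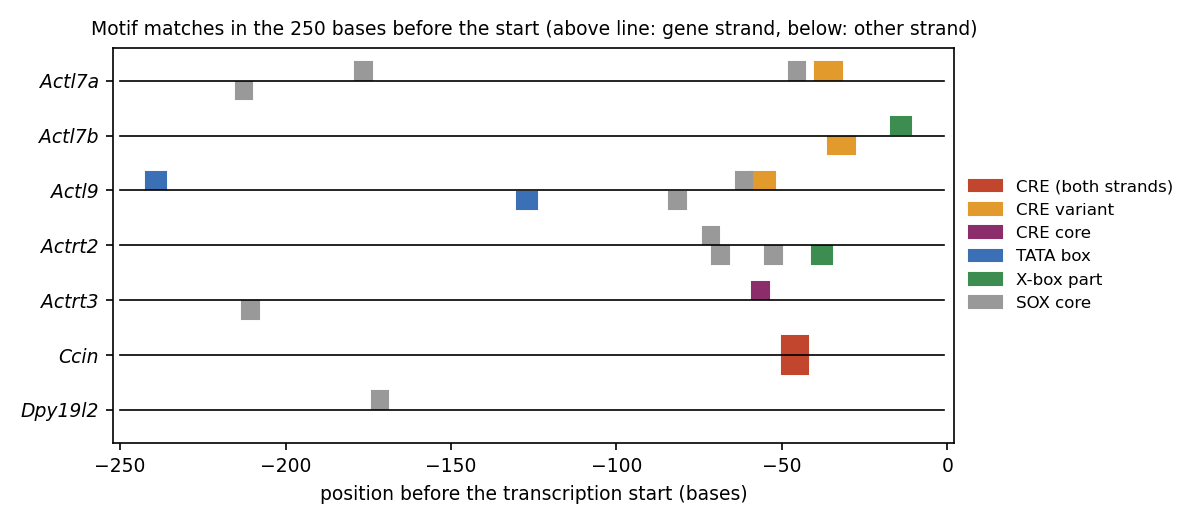
Matches of the searched letters in the 250 bases before the start (x axis, bases) of the 7 members in the promoter table (y axis), with blocks above the line read on the strand of the gene and blocks below it on the other strand. The CRE of Ccin, which reads the same on both strands, and the CRE variant of Actl7a, Actl7b and Actl9 all lie between bases -60 and -29.

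The study's lists of genomic context, held here in part, set 2 intergenic lncRNA probes beside a member. These lists hold lncRNAs that the study had already called different between the ages on these arrays, so a change in them was fixed by the choice, and no p is given. The lncRNA uc008sxm, which lies between Klf4 and Actl7b, was at the floor on the neonatal arrays and at -3.33, -3.09 and -3.22 on the adult arrays. It was at least 15.1-fold higher in the adult testis on 3 adult arrays. Of the 9396 tested lncRNA probes 19.9% were called in that direction, from which nothing is read here. With normexp background correction this dropped to 2.32 on the log2 scale, a little below 5-fold. The lncRNA AK007111, between Capza3 and Plekha5, was at the floor on the neonatal arrays and at -2.15, -2.39 and -4.72 on the adult arrays, with the first and the second of these marked as outliers. It was not tested in the paired fit, and with these spots kept it was at least 16.5-fold higher. The adult array that remained gave at least 5.31-fold. Adult replicate 3 lay far below the other 2 adult values.

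The genes whose profile over the 6 arrays was most like the members' were sought by Pearson's r. Actl7a was the only member with all 6 spots above background and free of outlier marks, so its profile stood for the members. Of 4577 genes compared, 55 (1.20%) had an r over 0.999. The arrays fall into 2 ages, so r here mostly follows the difference between them. The 5 genes with the highest r were Tepp, Slc22a14, Cep295nl, Slc1a7 and Cryba2. Tepp rose from -4.55, -4.47 and -3.66 to 3.56, 3.72 and 4.09, and Slc22a14 from -5.42, -5.41 and -4.50 to 4.95, 4.95 and 5.66. In both, as in Actl7a, the highest value at each age was that of replicate 3.

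Markers of the cell types of the testis differed between the ages in the same arrays. Over all tested mRNA probes, 12.6% were called higher and 13.7% lower in the adult testis. The 7 haploid germ cell markers, with Prm2 the brightest in the adult testis, had a summed scaled signal (the array's 75th percentile set to 1) of 0.493, 0.484 and 0.577 on the neonatal arrays and 1183, 1413 and 1638 on the adult arrays. All 5 that were tested rose, with a median log2 fold change of 12.47. With the outlier-marked spots kept, 7 of 7 rose and the median was 12.36. All 7 were well above background on every neonatal array too, with Prm1 at -4.40, -4.98 and -4.58. The members' own sum was 0.114, 0.109 and 0.156 against 183.0, 190.9 and 235.9. The 6 spermatocyte markers had sums of 24.3, 21.3 and 31.5 against 145.8, 153.9 and 213.7, with Hspa2 the brightest in adults, and 2 of 4 tested rose, or 3 of 6 with the spots kept. Sycp3, not tested in the paired fit, was at 2.68, 2.22 and 1.32 in the neonatal testis, all marked as outliers. Its adult values differed widely, at -0.61, 3.94 and 3.19, the second and the third marked as outliers.

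In the spermatogonial and somatic lists, most of the called genes fell. The 7 spermatogonial markers had sums of 47.8, 46.2 and 58.3 in the neonatal testis and 9.89, 11.2 and 11.7 in the adult testis, with Stra8 and Kit the brightest at the respective age, and 3 of 5 tested fell and 1, Id4, rose, or 4 of 6 and 1 with the spots kept. Gfra1 was at background on all arrays. The 7 measured Sertoli cell markers, led by Inha, had sums of 94.5, 102.1 and 80.1 against 23.8, 19.1 and 19.6, and 2 of 4 tested fell, or 4 of 7 with the spots kept. The 6 Leydig cell markers had sums of 26.5, 28.5 and 25.5 against 72.9, 56.5 and 54.4, led by Hsd3b1 in neonates and Insl3 in adults, and none of the 4 tested was called. With the spots kept, 1 of 6 rose, which was Insl3 (log2 fold change 3.49, adjusted p = 0.000443). The peritubular myoid list (Myh11 the brightest, Cnn1 at background on all arrays) had sums of 21.4, 21.6 and 26.7 against 4.69, 4.25 and 6.47, with neither of 2 tested genes called. Acta2 is in this list as well as among the muscle actins.

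The 3 measured macrophage markers, led by C1qa, had sums of 5.31, 5.47 and 6.43 against 3.70, 3.90 and 5.76, with none of 2 called. The 3 endothelial markers, led by Cdh5, had sums of 6.55, 7.56 and 13.04 against 1.56, 1.22 and 2.31, and 2 of 3 fell. The 3 measured erythroid markers had sums of 16.7, 20.7 and 18.5 against 3.70, 5.62 and 4.25, with Hbb-bt the brightest in neonates, and 1 of 2 fell, or 2 of 3 with the spots kept. Alas2, the brightest of them in adults, went the other way, with a log2 fold change of 1.99 (adjusted p = 0.00556, SE 0.23), under 5-fold. The 3 adipose markers, led by Adipoq, had sums of 0.430, 1.12 and 0.635 against 0.0690, 0.0997 and 0.107, and 2 of 2 fell, or 3 of 3 with the spots kept. The part that the makeup of the tissue had in the members' change was not tested.

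**Figure D4:**
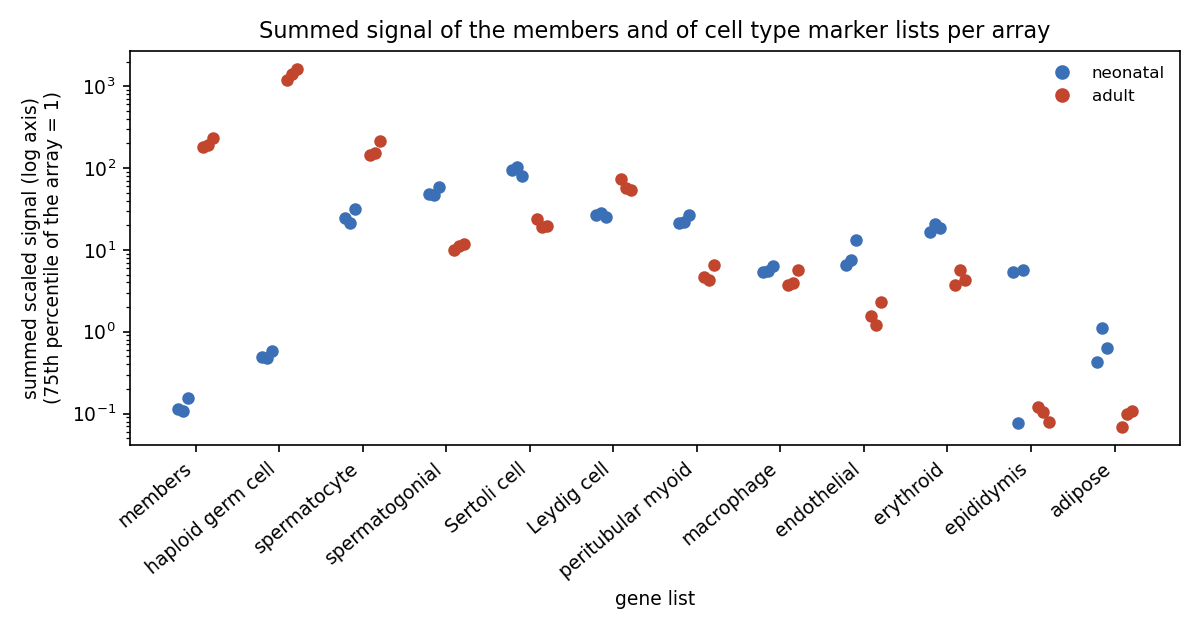
Summed scaled signal of the members and of each marker list (x axis) on every array (y axis, log scale, with the array's 75th percentile at 1), neonatal arrays in blue and adult arrays in red. The members run from 0.109 to 0.156 in the neonatal testis and from 183.0 to 235.9 in the adult testis, and the haploid germ cell markers from 0.484 to 0.577 and from 1183 to 1638.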

How the data were processed

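RNA of whole testis was measured on 6 Agilent 1-colour arrays, 3 at 6 days and 3 at 8 weeks. Per the file headers and labels, the authors deposited the intensity of every spot from Agilent Feature Extraction 10.5.1.1, background-subtracted and not normalized between arrays. The authors also deposited log2 values. Their methods name quantile normalization, but 99.8% of the values are, within 0.001, the log2 of the signal with a floor of 5, shifted by 1 constant per array.

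Intensities were scaled to the 75th percentile of each array, floored at a common -7.22 and fitted in R 4.3.3 by limma 3.58.1. Replicate number was a block, since a paired test is named in the methods. Tests covered probes with 2 complete pairs and a spot well above background on 1 array or more, 24517 lncRNA and mRNA probes together, and p-values were adjusted over all of them. Outlier-flagged spots were left out. The fit was tested on simulated data. Tables and figures were made with numpy 2.4.6, pandas 2.3.3 and matplotlib 3.10.9 in Python 3.11.15. Deviations from the mean of each age correlated at 0.341, 0.248 and 0.587 between arrays of the same number, at 0.323 and 0.286 between arrays of different number in the same scan, and between -0.492 and -0.377 across scans. Arrays of the same scan were thus alike whether or not their numbers matched, and no pairing by number was seen beyond the scan. Within an age, arrays correlated at 0.975 to 0.994.

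Accessions were named through a RefSeq table on GRCm38.p6, which matched 21905 of 22464 mRNA probes (97.5%). The brightest probe stood for a gene with several. Of the related lists, the genes with the largest change among those tested, and those described by their role, are named. The members and lists were chosen with earlier results of these data known. Protein sequences were not analysed here.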

Additional observations from a re-analysis of the deposited data

How the results depend on the processing

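The 5 tested members stayed called higher under every alternative to floor, scaling, background correction, filter, block and test that could test them. Over these, with all arrays in, the log2 fold change ran from 10.73 to 11.88 for Actl7a, 10.64 to 12.47 for Actl7b and 9.08 to 9.57 for Actrt2. For Capza3 and Ccin, at the floor in the neonatal testis, it was 9.26 and 5.53 after normexp, below the printed bounds, and 12.90 and 9.37 with no floor, so their size depended on these choices. The paired design gave 5 called members, and the fit with no replicate block also 5. The median over tested mRNA probes, -0.40, moved to -0.73 with quantile normalization, -0.65 with a shift to the median, -0.84 on the authors' log2 values and 0.03 after normexp. The counts of mRNA probes called higher and lower, 1908 and 2075, were 2276 and 3873 on the authors' values and 1502 and 1034 after normexp. On the authors' values 18506 mRNA probes were tested, beside 15121 in the main and normexp fits.

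Leaving out arrays gave 1 to 6 called members. With no replicate block and marked spots removed, some of these counts rest on 1 array of an age. That was so for Actl9 wherever it was tested, and for Actl7b, Actrt2, Capza3 and Ccin without adult replicate 1 or 2. The lone array is assumed to vary like the others. The count of 1 came without replicate 1 or replicate 2 of both ages, where Actl7a alone kept enough unmarked spots to be tested. With outlier-marked spots kept, a setting paired with leave-outs after the data had been seen, 6 members were called in each leave-out. Over the leave-outs, the called counts ran from 2 to 4 for the testis actin-related genes, 3 to 14 for the other theca genes, 0 to 6 for the falling widely expressed actin genes, 0 to 1 for rising muscle actins, 0 to 1 for falling Dpy19 genes and 1 to 4 for the transcription regulators. Fewer probes were tested in some of these, and some rest on a lone array.

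Among the other theca genes, 14 rose with the marked spots kept and 5 by the methods' t-test after Benjamini-Hochberg adjustment. Of the widely expressed actin genes, 0 rose after normexp and 2 at a fold change of 2, and 6 fell on the authors' values, 1 by the methods' t-test and 0 after its adjustment. On the authors' values 21 of these actin genes were tested, and 12 in the other fits named here. At a fold change of 2, 1 muscle actin, 2 Dpy19 genes, 2 nuclear envelope genes and 2 transcription regulators fell, and after normexp 0 Dpy19 genes fell. The log2 fold change of uc008sxm was 2.32 after normexp. The cause was not tested for these.

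With 3 arrays per age, replicate 3 in its own scan, and 3 of the 6 members with a change at the floor in neonates, the size of a change is limited by signal over background. No direction of a called gene turned under any alternative.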

Other observations

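Crisp1, a secreted protein of the epididymis, differed among the neonatal arrays. Its normalized log2 signal was 2.44 and 2.51 on neonatal arrays 1 and 3, the latter marked as an outlier, but -4.34 on neonatal array 2. The adult values were -4.23, -4.37 and -5.30. Its log2 fold change of -3.35 was not called (adjusted p = 0.204, SE 1.90). The epididymis list had a summed scaled signal of 5.44, 0.0761 and 5.74 on the neonatal arrays and 0.119, 0.104 and 0.0789 on the adult arrays, and on neonatal arrays 1 and 3 nearly all of it was Crisp1. Lcn5 was above background on neonatal array 1 alone, Lcn9 and Rnase10 only in the adult testis and Lcn8 nowhere. None of the 4 tested genes was called. The members showed no such split, with neonatal sums of 0.114, 0.109 and 0.156.

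Csnk2a2, the catalytic casein kinase subunit whose loss in mice gives round-headed sperm, was not well above background on any adult array with its probe here. Its signal was -6.69, -6.08 and -7.15 in the neonatal testis and -6.77, -7.13 and -6.98 in the adult testis. No change between the ages is given for it.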
